A study of Homo sapiens with 14 samples.

Results

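The 6 RBFOX2 libraries of this series, 3 made from 1 ng and 3 made from 100 pg of total RNA, were set against each other to see which genes, transcript regions and ranges of read coverage held more or fewer C-to-U edits at the lower input. They were chosen by their titles and are 6 of 14 libraries. All 6 come from HEK293T cells, a human embryonic kidney line that the labels also write as HEK293XT, fixed with methanol and treated with an antibody against RBFOX2 and then with a purified fusion of the cytidine deaminase APOBEC1 and a nanobody that binds the antibody. The other 8 libraries were 1 Enzyme-only library per input, which had the enzyme without the antibody, and 3 Buffer-only libraries per input, which had neither. Enzyme-only values therefore have no replicate check. The study calls the replicates technical, and all come from 1 cell line, so p-values measure only the technical spread between these samples.

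The cell line was checked with marker genes, for which an edit site shows that a transcript was sequenced and not how abundant it was. Of 13 markers of HEK293 cells, 11 held a site at each input, and PAX2 and LHX1 held none. Their summed sites were 61, 77 and 92 at 1 ng, against 38, 42 and 30 at 100 pg. Of 9 markers of differentiated kidney cells only LRP2 held sites, with 0, 0 and 3 at 1 ng against 1, 2 and 2 at 100 pg. The 9 markers of blood, endothelial and fibroblast cells held 0 sites in all 3 libraries at 1 ng, against 1, 0 and 0 at 100 pg.

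RBFOX2 is a splicing regulator whose single RNA recognition motif binds UGCAUG, and in many cells it binds introns near alternative exons as well as the 3′ ends of messenger RNAs. APOBEC1 deaminates cytosine to uracil and prefers a cytosine that follows A or U. When the enzyme is held at a bound protein, C-to-U changes gather close to the binding motif, and each change is read as a mismatch in the sequenced RNA. A site was called only where enough reads crossed it, so a site that is absent from a library may have been unedited, too thinly covered or missing from the RNA that was sequenced, and the deposited lists do not separate these. For the same reason the lists alone do not separate fewer RNA molecules of a transcript from fewer edits per molecule. In the paper's protocol, editing took place in fixed cells before RNA was extracted, and the input amount was taken from the extracted RNA. Editing per molecule was not tested here.

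The RNA-sense sequences of 12 motifs show where edits were kept and lost, each 30 bases of hg38 with TGCATG, the DNA spelling of UGCAUG, in capitals. All 12 lie in 3′UTRs. The first 6 had edited positions within 50 nt in all 3 libraries at 100 pg and were those with the most edited positions at 1 ng.
AP3S1: ccaagtatgtatTGCATGaaaacattatga
CDH2: attcaggtttttTGCATGtttatatctttc
ARF4: tcttttttatgtTGCATGttgcttttgtta
ZNF503: cacaaatttacaTGCATGtttgttacaaaa
UBE2E2: tttattggtgggTGCATGctactgggaaca
ZBTB8A: tctgatataactTGCATGctttctgaacag
These motifs are at chr5:115913907-115913936 (plus strand) for AP3S1, chr18:27951340-27951369 (minus strand) for CDH2, chr3:57571526-57571555 (minus strand) for ARF4, chr10:75398155-75398184 (minus strand) for ZNF503, chr3:23590318-23590347 (plus strand) for UBE2E2 and chr1:32600538-32600567 (plus strand) for ZBTB8A. The other 6 had the most edited positions at 1 ng among motifs with 0 in every library at 100 pg.
RMND5A: atgactgcagtaTGCATGtatttttttcct
CARNMT1: aacagaaaggaaTGCATGctgtttttcaat
CNIH1: atccctgtatatTGCATGaatgagagattt
MARK1: agaattctttttTGCATGcgttaacactta
MTR: ccagcaaactctTGCATGtggccactagga
LRPPRC: atgtatgtgtgaTGCATGttcaaagtctta
They are at chr2:86777492-86777521 (plus strand) for RMND5A, chr9:74981817-74981846 (minus strand) for CARNMT1, chr14:54427233-54427262 (minus strand) for CNIH1, chr1:220636202-220636231 (plus strand) for MARK1, chr1:236900069-236900098 (plus strand) for MTR and chr2:43888463-43888492 (minus strand) for LRPPRC.

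Around the motif of AP3S1, a gene for a subunit of the AP-3 vesicle adaptor, 7, 2 and 3 edited positions were called at 1 ng, against 1, 2 and 1 at 100 pg. The motif of CDH2, which encodes N-cadherin, had 4, 4 and 5 positions at 1 ng against 1, 3 and 1 at 100 pg. The motif of ZNF503, a zinc finger gene, had 3, 2 and 4 positions at 1 ng against 3, 1 and 3 at 100 pg. Of its 7 distinct positions at 1 ng and 6 at 100 pg, 5 were shared, the most among the first 6 motifs. AP3S1 shared 3 of 9 at 1 ng and 4 at 100 pg, and CDH2 and ARF4 each 2 of 7 and 4. UBE2E2 shared 4 of 6 and 4, and ZBTB8A 2 of 5 and 3. Around the RMND5A motif, in a gene for a subunit of the CTLH ubiquitin ligase, 4, 5 and 3 positions were called at 1 ng and 0 in each library at 100 pg. The motif of CARNMT1, a carnosine methyltransferase gene, had 6, 2 and 4 positions at 1 ng and 0 at 100 pg. The edited positions at the lost CNIH1 motif were well covered at 1 ng, with a median of 140 reads, and those at the lost MARK1 motif thinly, with 13 reads. These motifs were picked for their counts, which are therefore a description.

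Over all UGCAUG motifs in genes, 3336 had an edited position within 50 nt in some library at 1 ng and 1593 in some library at 100 pg, and 631 had one at both inputs. That is 18.9% of the 1 ng motifs and 39.6% of the 100 pg motifs. A library held 1336, 1401 and 1434 such motifs at 1 ng, against 609, 598 and 591 at 100 pg. Motifs edited in all 3 libraries at 1 ng numbered 154, of which 99 (64.3%) were edited in some library at 100 pg, and motifs edited in all 3 libraries at 100 pg numbered 30, of which 27 (90%) were edited at 1 ng. Motifs edited in all 6 libraries numbered 16.

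The first comparison asked how many edit sites each input gave. On the strand of an annotated gene, where C-to-U editing of its RNA would be read, the libraries held 30256, 31594 and 31948 sites at 1 ng, against 16824, 17088 and 17092 at 100 pg. The means were 31266 ± 892 at 1 ng and 17001 ± 154 at 100 pg, a ratio of 1.84 (SD, n = 3 each, exact two-sided permutation test, p = 0.1, the smallest that 3 libraries against 3 can give). No library of one input reached the range of the other. Mismatch sites on the strand opposite to the gene did not follow this: they averaged 8861 ± 330 at 1 ng and 8793 ± 275 at 100 pg, the ranges overlapped and the exact permutation p was 0.5.

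The libraries without antibody give the background of this ratio. The Enzyme-only libraries held 27211 gene-strand sites at 1 ng and 14968 at 100 pg, a ratio of 1.82, close to that of the RBFOX2 libraries. The Buffer-only libraries held 11850 at 1 ng and 10448 at 100 pg on average, a ratio of 1.13. Of the RBFOX2 gene-strand sites 3.11% ± 0.038 at 1 ng and 3.36% ± 0.091 at 100 pg were at positions that a Buffer-only library also held. These shares count identical positions only and do not measure how many of the sites are background.

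Edited reads were in the opposite order to sites. The gene-strand sites were carried by 60544, 60702 and 65201 edited reads at 1 ng, against 67335, 67459 and 70601 at 100 pg, a ratio of 0.908 with no overlap between inputs (exact permutation p = 0.1). The median site carried 1 edited read in every library at 1 ng and 2 in every library at 100 pg. Sites with a single edited read made up 54.8% ± 1.73 at 1 ng and 44.4% ± 0.96 at 100 pg (SD, n = 3). No molecular identifiers are mentioned in the sources, so edited reads are not independent molecules.

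The ratio of site counts between inputs differed between ranges of read coverage. Coverage was taken in each library on its own, so a range need not hold the same sites at both inputs. Sites covered by 5 to 9 reads, 5 being the lowest coverage in the lists, numbered 7191, 7538 and 7385 at 1 ng, against 2515, 2549 and 2468 at 100 pg, a ratio of 2.94. The ratio was 1.76 at 10 to 19 reads, with 7341 ± 210 sites at 1 ng and 4178 ± 77.5 at 100 pg. It was 1.86 at 20 to 49 reads, with 9378 ± 357 at 1 ng and 5047 ± 140 at 100 pg, and 1.75 at 50 to 99 reads, with 4595 ± 130 at 1 ng and 2622 ± 37.2 at 100 pg. In each of these 4 ranges the inputs did not overlap (exact permutation p = 0.1, SD, n = 3).

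At 100 reads and more no difference was detected. These sites numbered 2501, 2476 and 2764 at 1 ng, against 2670, 2551 and 2713 at 100 pg, and the ranges overlapped (ratio 0.976, exact permutation p = 0.7). No site in this range carried a single edited read in any of the 6 libraries, while 45.8% ± 1.86 at 1 ng and 33.3% ± 1.76 at 100 pg did at 50 to 99 reads, so sites with 1 edited read cannot enter the comparison at the highest coverage. Sites of 100 reads and more made up 8.25% ± 0.41 of the gene-strand sites at 1 ng and 15.6% ± 0.54 at 100 pg. The Enzyme-only libraries had the same shape, with ratios of 3.06 at 5 to 9 reads and 0.951 at 100 reads and more. In the Buffer-only libraries the ratio was 1.42 at 5 to 9 reads and 0.889 at 100 reads and more. The median coverage of a gene-strand site was 21, 21 and 22 reads at 1 ng and 27, 26 and 27 reads at 100 pg.

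**Figure D1:**
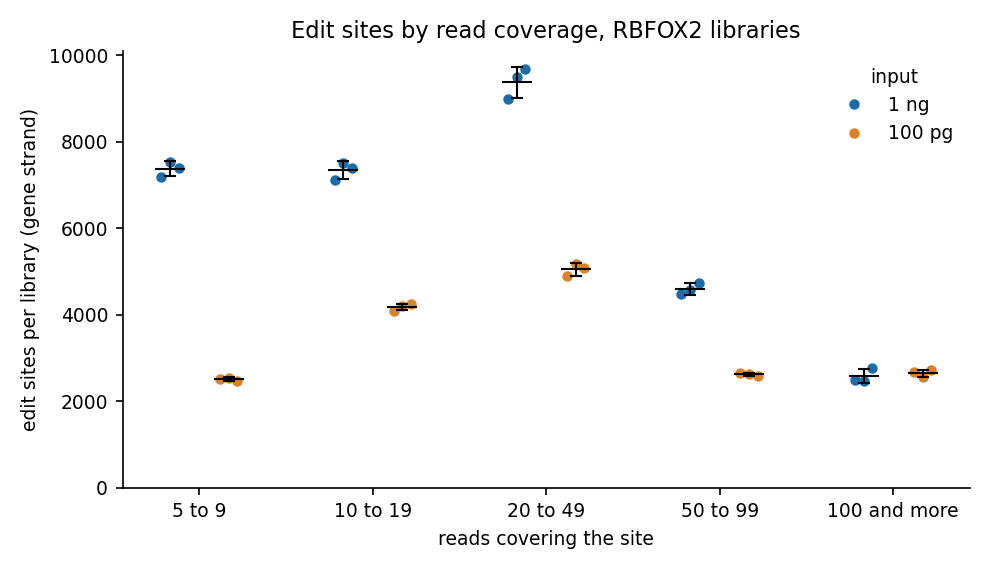
Edit sites on the gene strand per RBFOX2 library (y axis) in 5 ranges of read coverage at the site (x axis), with 1 point per library and lines for the mean and SD of each input (n = 3). The 1 ng libraries lie above the 100 pg libraries in each range up to 99 reads, and the inputs overlap at 100 reads and more.

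The edit fraction, the share of a site's reads that carry the edit, was lower at 1 ng where coverage was high. Its median over all gene-strand sites was 6.67% in each library at 1 ng and 7.69% in each library at 100 pg. At 5 to 9 reads the median was 20% at 1 ng and 16.7% at 100 pg, the reverse order. At 50 to 99 reads it was 2.22% ± 0.077 at 1 ng and 3.88% ± 0.16 at 100 pg. At 100 reads and more it was 1.76% ± 0.026 at 1 ng and 2.67% ± 0.095 at 100 pg. Each of these differences was without overlap (exact permutation p = 0.1, n = 3 each). Enzyme-only sites of 100 reads and more had medians of 1.75% at 1 ng and 2.76% at 100 pg, and Buffer-only sites averaged 1.68% at 1 ng and 2.17% at 100 pg, the same order without antibody. At 50 to 99 reads the Buffer-only medians were 1.92% and 1.94%. Since a list holds only called sites, these medians leave out unedited positions.

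Among transcript regions, 3′UTRs had the largest difference in sites between inputs. They held 15551, 15966 and 16316 sites at 1 ng, against 7363, 7247 and 7296 at 100 pg, a ratio of 2.18. Coding sequence held 4405, 4413 and 4358 at 1 ng against 2772, 2678 and 2737 at 100 pg, a ratio of 1.61. Introns held 7491, 8226 and 8344 at 1 ng against 4959, 5226 and 5184 at 100 pg, a ratio of 1.57. As shares of the gene-strand sites, 3′UTRs made up 51.0% ± 0.44 at 1 ng and 43.0% ± 0.72 at 100 pg, coding sequence 14.1% ± 0.47 and 16.1% ± 0.40, and introns 25.6% ± 0.76 and 30.1% ± 0.58, each without overlap (exact permutation p = 0.1, SD, n = 3).

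Part of this order was also present without the antibody. The 3′UTR ratio was 2.08 in Enzyme-only and 1.35 in Buffer-only libraries, and the intron ratio was 1.68 in Enzyme-only and 0.919 in Buffer-only libraries. Introns held 32.0% of Buffer-only sites at 1 ng and 39.6% at 100 pg. Introns within 500 nt of an exon, where RBFOX2 is known to act on splicing, held 1793 ± 108 sites at 1 ng and 1040 ± 12.1 at 100 pg (ratio 1.72). Deeper introns held 6228 ± 359 at 1 ng and 4083 ± 133 at 100 pg (ratio 1.53). Protein-coding genes held 92.5% ± 0.10 of gene-strand sites at 1 ng and 90.0% ± 0.37 at 100 pg, and genes for long noncoding RNAs 5.86% ± 0.046 and 7.80% ± 0.20.

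The ratio of site counts differed by region and by the coverage of the sites, which was taken in each library on its own. In 3′UTRs at 5 to 9 reads there were 2050, 2050 and 1918 sites at 1 ng, against 504, 482 and 453 at 100 pg, a ratio of 4.18. The 3′UTR ratio was 2.84 at 10 to 19 reads, 2.43 at 20 to 49 reads, 1.95 at 50 to 99 reads and 1.04 at 100 reads and more, where the inputs overlapped (exact permutation p = 0.6). In coding sequence the ratio was 2.32 at 5 to 9 reads, and at 100 reads and more it was 0.815, with 506, 513 and 516 sites at 1 ng against 656, 587 and 640 at 100 pg. That was the one range of coding sequence in which all 100 pg libraries held more sites. The same ratio was 0.813 in Enzyme-only libraries and 0.784 in Buffer-only libraries, where the inputs overlapped. In introns deeper than 500 nt the inputs were apart at 5 to 9 reads, with a ratio of 2.68, and overlapped in each range from 10 reads up. There the ratio was 1.09 at 10 to 19 reads (exact permutation p = 0.3) and 0.878 at 20 to 49 reads (exact permutation p = 0.2). Deep-intron background without enzyme was not equal between inputs in these ranges. Buffer-only libraries averaged 860 such sites at 1 ng and 1311 at 100 pg at 10 to 19 reads. At 20 to 49 reads they averaged 485 and 665, and neither range overlapped. Similar RBFOX2 counts therefore do not show that enzyme edits in deep introns were kept at 100 pg.

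**Figure D2:**
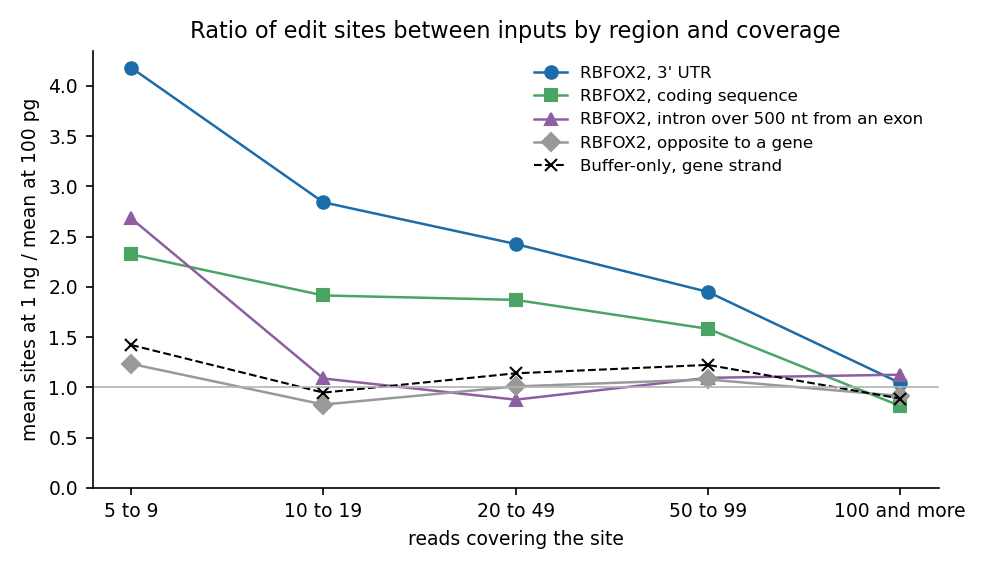
Mean edit sites at 1 ng over mean edit sites at 100 pg (y axis) in 5 ranges of read coverage (x axis), for 3′UTRs, coding sequence, introns over 500 nt from an exon and sites opposite to a gene in RBFOX2 libraries and, as a dashed line, for the gene strand in Buffer-only libraries. The 3′UTR ratio is 4.18 at 5 to 9 reads and 1.04 at 100 reads and more.

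Sites near the RBFOX2 motif differed more between inputs than other sites. Within 50 nt of a UGCAUG there were 1862, 1858 and 1985 sites at 1 ng, against 766, 767 and 781 at 100 pg, a ratio of 2.47, while sites farther away had a ratio of 1.81. The share of gene-strand sites near UGCAUG was 6.15, 5.88 and 6.21% at 1 ng, against 4.55, 4.49 and 4.57% at 100 pg (exact two-sided permutation p = 0.1). In Enzyme-only libraries the share was 2.86% at 1 ng and 2.78% at 100 pg, and in Buffer-only libraries it averaged 2.48% and 2.64%. The RBFOX2 libraries did not overlap between inputs, and those of both inputs lay above the libraries without antibody.

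The difference in motif share was widest where coverage was thin. At 5 to 9 reads, 6.92% ± 0.18 of sites at 1 ng and 3.45% ± 0.21 at 100 pg were near UGCAUG, against 2.97% and 3.25% in Enzyme-only libraries. At 10 to 19 reads the shares were 6.39% ± 0.23 at 1 ng and 4.60% ± 0.40 at 100 pg, and at 20 to 49 reads 5.60% ± 0.16 and 4.57% ± 0.13. At 100 reads and more they were 6.48, 4.85 and 6.22% at 1 ng against 5.51, 4.59 and 5.42% at 100 pg, and the inputs overlapped (exact permutation p = 0.3).

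By region, introns within 500 nt of an exon differed most in motif share, with 7.59% ± 0.34 of sites near UGCAUG at 1 ng and 4.10% ± 0.34 at 100 pg. Deeper introns had 6.96, 6.83 and 7.21% at 1 ng, against 4.61, 4.53 and 4.44% at 100 pg. In 3′UTRs the share was 6.58% ± 0.34 at 1 ng and 5.64% ± 0.047 at 100 pg, and in coding sequence 3.12% ± 0.11 and 2.69% ± 0.29. None of these 4 regions overlapped between inputs (exact permutation p = 0.1 each, SD, n = 3).

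The base before the edited cytosine, which APOBEC1 reads, moved with input too. Sites after A or U made up 76.3, 77.0 and 76.7% of gene-strand sites at 1 ng, against 65.1, 65.7 and 65.2% at 100 pg. Sites after A numbered 13261 ± 487 at 1 ng and 5799 ± 79.8 at 100 pg, a ratio of 2.29, whereas sites after C, a context that the enzyme edits little, numbered 3395 ± 62.1 at 1 ng and 2831 ± 54.8 at 100 pg, a smaller difference. The A or U share was 72.7% and 60.0% in the Enzyme-only libraries at 1 ng and 100 pg, and it averaged 47.9% and 47.5% in the Buffer-only libraries. At 5 to 9 reads the RBFOX2 share was 76.3% ± 0.033 at 1 ng and 55.9% ± 0.79 at 100 pg, and at 100 reads and more 81.6% ± 1.40 and 78.4% ± 1.33. The gap between inputs in this share was wider at thin than at deep coverage.

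Around the motif, both inputs had their peak 10 to 20 nt to the 3′ side of its centre. This bin held 323, 330 and 385 sites at 1 ng, against 114, 107 and 125 at 100 pg, a ratio of 3.00. The bin from 10 to 0 nt on the 5′ side held 204, 184 and 220 sites at 1 ng, against 115, 83 and 89 at 100 pg, a ratio of 2.12, and the bin 250 nt to the 5′ side 94.7 ± 6.03 and 46.3 ± 3.21, a ratio of 2.04. Along the transcript, the median distance of sites to the annotated end was 1428, 1392 and 1368.5 nt at 1 ng, against 1372, 1407 and 1425 nt at 100 pg, and no shift was detected (exact permutation p = 0.8). Among 3′UTR sites alone it was 1085 nt at 1 ng and 1030 nt at 100 pg (exact permutation p = 0.1).

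**Figure D3:**
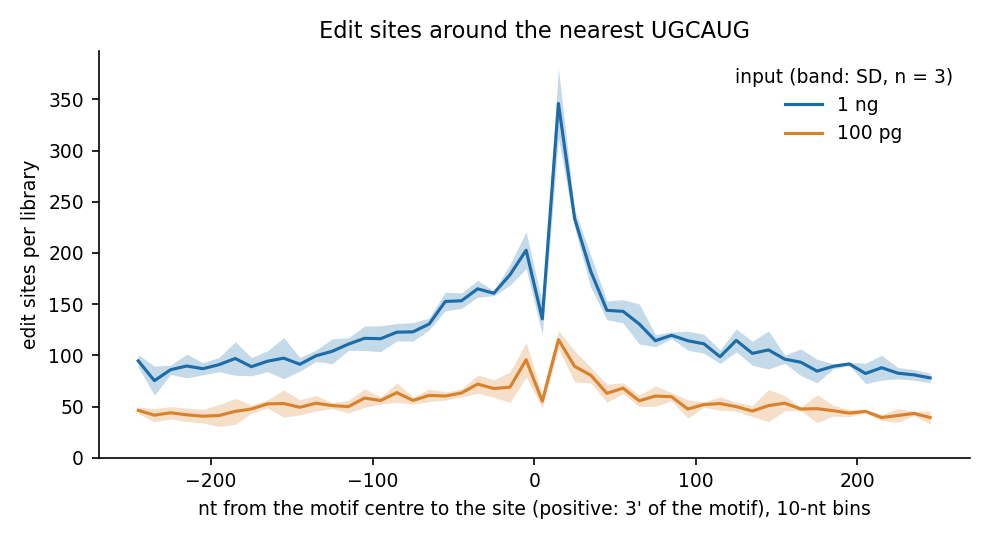
Edit sites per RBFOX2 library (y axis) in 10-nt bins of distance from the centre of the nearest UGCAUG (x axis, positive on the 3′ side), as the mean of each input with a band of 1 SD (n = 3). The bin of 10 to 20 nt holds 346 sites at 1 ng and 115 at 100 pg.

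Turning to genes, 12464 held a gene-strand site in some library at 1 ng and 11826 in some library at 100 pg, and 9831 did at both inputs, 78.9% of the 1 ng genes and 83.1% of the 100 pg genes. Per library, 8962 ± 57.3 genes held a site at 1 ng and 7339 ± 50.3 at 100 pg (ratio 1.22). Genes with a site in all 3 libraries numbered 5613 at 1 ng and 3233 at 100 pg, and 2531 were in all 6, 45.1% and 78.3% of the lists. Of the genes in all 3 libraries at 1 ng, 306 held no site at 100 pg, and 272 of these are protein-coding. The reverse list held 49 genes, 34 of them protein-coding. The 306 genes were more thinly covered at 1 ng, with a median site coverage of 14.5 reads, against 27 reads in the genes that kept a site in all 3 libraries.

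WASF1, an actin regulator of the WAVE complex, held the most sites at 1 ng among genes with none at 100 pg: 12, 13 and 7 at 1 ng and 0, 0 and 0 at 100 pg. If a floor of 3 sites over the 3 libraries is assumed at 100 pg, this is at least 10.7-fold higher at 1 ng. UBE2D1, a ubiquitin-conjugating enzyme gene, held 3, 7 and 14 sites at 1 ng (at least 8-fold higher), and CNOT6, a deadenylase of the CCR4-NOT complex, held 6, 9 and 6 (at least 7-fold higher), with 0 in every 100 pg library. CDC14B, a phosphatase gene, held 4, 6 and 13 sites at 1 ng. PAQR3, a Golgi membrane protein gene, held 10, 11 and 2. ARMT1, a metal-dependent phosphatase gene, held 9, 9 and 5. For these last 3 genes the bound was at least 7.67-fold. ALG6, LACTB2, MYEF2 and BNIP3L, the remaining 4 of the 10 genes with the most sites, had bounds of 6 to 6.67. The median site coverage of the 10 genes at 1 ng lay between 10 reads in MYEF2 and 36 in WASF1. WASF1 held 7 sites in the Enzyme-only library at 1 ng and 1 at 100 pg without the antibody. In the Buffer-only libraries at 100 pg WASF1 held 1, 2 and 2 sites, ALG6 2, 1 and 4, and ARMT1 0 in each. Background without enzyme can thus exceed the assumed floor, so the bounds hold only for that floor. The genes were picked for these counts, so the bounds are a description.

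The 49 genes found only at 100 pg had a median site coverage of 18.5 reads (quartiles 12 and 156), against 30.5 reads at 100 pg in the genes with a site in all 6 libraries. The 5 with the most sites are named here, and 4 of them were deeply covered. ERH, a small and highly conserved protein gene, held 0 sites in each library at 1 ng and 1, 4 and 4 at 100 pg. HMGB2, a DNA-bending chromatin protein gene, held 0 at 1 ng and 2, 2 and 4 at 100 pg. COX5A, a subunit of cytochrome c oxidase, held 0 at 1 ng and 3, 2 and 2 at 100 pg, with 0 and 5 sites in the Enzyme-only libraries at 1 ng and 100 pg. With the same assumed floor, the bound was at least 3-fold lower at 1 ng for ERH, 2.67 for HMGB2 and 2.33 for COX5A, LINC02245 and LRPAP1. These genes were also picked for their counts, so the bounds are a description. The median site coverage was 813 reads in ERH, 619 in COX5A, 469.5 in HMGB2 and 203 in LRPAP1, and 12 in the long noncoding LINC02245.

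Sites were counted per gene and compared in 2174 genes. With counts scaled to each library's total by edgeR, 0 genes were called higher and 0 lower at 1 ng, a background of 0% in both directions (threshold 0.05 on the adjusted p). Without adjustment 118 genes were higher and 85 lower at 0.05. DESeq2 also called 0 and 0, and 54 higher and 69 lower without adjustment. In data simulated for this comparison over 1820 genes, the test found 36.6% of the 93 genes with a 4-fold change and 2.33% of the 86 with a 2-fold change, so most differences of that size would be missed. Without scaling, edgeR called 57 genes higher at 1 ng (2.62%) and 0 lower. The median log2 fold change over all tested genes was 0.99 without scaling and 0.11 with scaling, so that the unscaled calls include the difference shared by all genes. Of the tested genes, 656 held more sites in every 1 ng library than in any 100 pg library (30.2%) and 22 fewer (1.01%). The filter on low counts could be met at 1 input alone: 1195 tested genes held at least 3 sites in each 1 ng library but not in each 100 pg library, and 103 the other way round, so the tested genes are themselves tilted towards 1 ng. As shares of each library's total, 255 were higher (11.7%) and 136 lower (6.26%) without overlap.

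Among the 57 genes called without scaling, CARNMT1 held 25, 10 and 21 sites at 1 ng, against 0, 0 and 3 at 100 pg. Its log2 fold change was 4.06 ± 0.79 without scaling (SE, edgeR adjusted p = 0.039) and 3.22 ± 0.81 with scaling (adjusted p = 0.191). MTR, methionine synthase, held 25, 19 and 21 at 1 ng against 4, 4 and 1 at 100 pg, a log2 fold change of 2.80 ± 0.48 without and 1.93 ± 0.52 with scaling. NUDT4, a hydrolase of inositol pyrophosphates, held 8, 9 and 10 at 1 ng against 0, 1 and 0. In all 3 genes the inputs were far apart. IPO7, an import receptor, held 18, 18 and 13 at 1 ng against 3, 2 and 3 at 100 pg, and SYNCRIP, a heterogeneous nuclear ribonucleoprotein, 20, 14 and 17 against 4, 3 and 2. YWHAG, a 14-3-3 protein gene, held 18, 14 and 15 at 1 ng against 2, 5 and 3 at 100 pg, and 19 of its 1 ng sites over the 3 libraries lay near UGCAUG, against 3 at 100 pg. DEK, a chromatin protein, held 19, 16 and 20 against 2, 6 and 4. Without the antibody, the Enzyme-only libraries at 1 ng and 100 pg held 4 and 0 sites in CARNMT1, 13 and 9 in MTR and 2 and 0 in NUDT4. They held 19 and 1 in IPO7 and 11 and 2 in SYNCRIP, but 1 and 4 in YWHAG and 7 and 13 in DEK. None of these genes was called with scaling under this filter. With scaling, MTR was called under edgeR's default filter (172 genes tested, adjusted p = 0.048) and CARNMT1 with no filter (adjusted p = 0.0058).

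The gene with the most sites of all, SLIT2, a secreted axon guidance factor (ENSG00000145147.20, hg38 chromosome 4, 20251905 to 20620561, plus strand), held 107, 101 and 73 sites at 1 ng, against 43, 47 and 44 at 100 pg. This ratio of 2.10 was near that of all genes, and the scaled log2 fold change was 0.18 ± 0.18 (edgeR adjusted p = 0.822). Without scaling, SLIT2 was called higher at 1 ng (log2 fold change 1.07 ± 0.17, SE, edgeR adjusted p = 0.039). The Enzyme-only libraries held 112 SLIT2 sites at 1 ng and 42 at 100 pg. The Buffer-only libraries held 29, 32 and 25 at 1 ng and 21, 20 and 19 at 100 pg. MECOM, a zinc finger transcription factor, held 19, 23 and 48 sites at 1 ng against 9, 6 and 8 at 100 pg, with 1 library well above the other 1 ng libraries. ENAH, an actin regulator, held 48, 28 and 38 at 1 ng against 13, 23 and 12 at 100 pg, and of its sites 28 at 1 ng and 9 at 100 pg lay near UGCAUG over the 3 libraries.

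The 22 genes that held fewer sites at 1 ng without overlap were mostly deeply covered. Their median site coverage was 170 reads, and 15 of them (68.2%) had a median of 100 reads or more, against 3.51% of the 656 genes that held more sites and 9.94% of all genes tested. For a gene or gene group this median was taken over the called sites of all 6 libraries pooled. It therefore leans to the input with more sites. CALM2, a calmodulin gene, held 10, 3 and 8 sites at 1 ng, against 12, 17 and 19 at 100 pg, at a median coverage of 835 reads (scaled log2 fold change −2.06 ± 0.45, SE, edgeR adjusted p = 0.156), and it was called under edgeR's default filter (−2.17, adjusted p = 0.00067). FKBP1A, a prolyl isomerase that binds FK506, held 1, 1 and 4 at 1 ng against 10, 10 and 6 at 100 pg (−2.92 ± 0.68, adjusted p = 0.156). SRSF3, an SR splicing factor, held 5, 4 and 3 at 1 ng against 7, 9 and 8 at 100 pg. EEF2, the elongation factor that moves the ribosome, held 0, 1 and 1 against 3, 3 and 3, and H3-3B, a histone H3.3 gene, 4, 3 and 4 against 7, 6 and 5. Near UGCAUG, CALM2 held 4 sites at 1 ng and 18 at 100 pg over the 3 libraries. These genes were chosen by the contrast, so their values are a description.

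**Figure D4:**
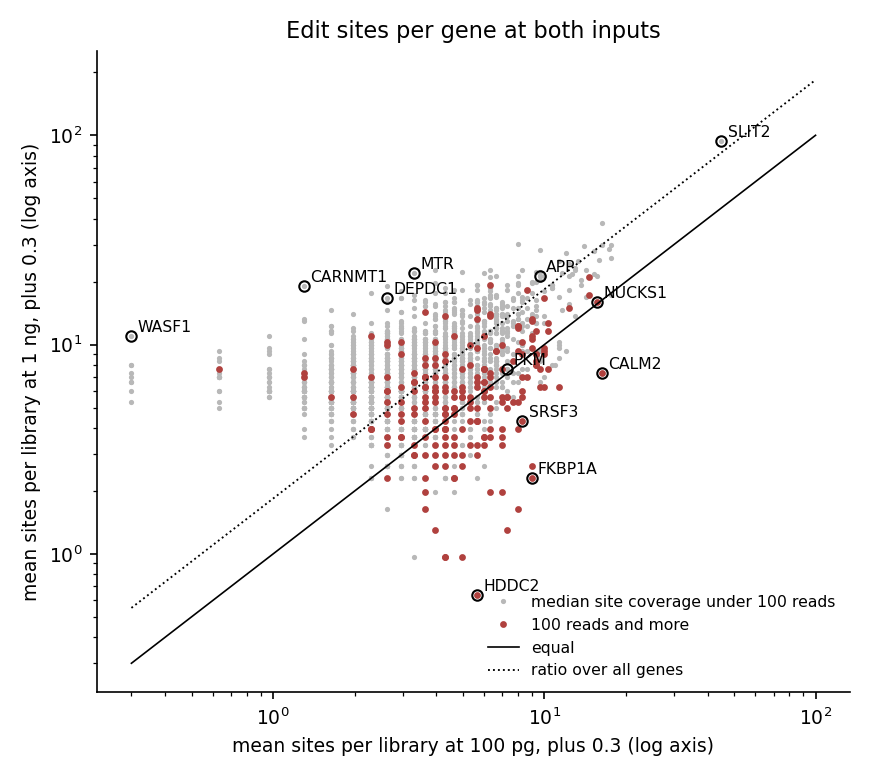
Mean edit sites per library and gene at 1 ng (y axis, log) and at 100 pg (x axis, log), each plus 0.3, for the 2174 tested genes, with the line of equality and the ratio over all genes dotted. Genes whose sites, pooled over the 6 libraries, had a median coverage of 100 reads or more are in red, and 22 genes held fewer sites at 1 ng without overlap.

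Genes with a site in all 6 libraries were also split by coverage. The 320 genes whose sites averaged 100 reads or more held 1673 ± 45.1 sites per library at 1 ng and 1444 ± 79.7 at 100 pg, a ratio of 1.16. The 1110 genes at 20 to 50 reads held 6982 ± 186 at 1 ng and 3586 ± 37.5 at 100 pg, a ratio of 1.95. The 51 genes under 10 reads had a ratio of 1.44. A gene had to be called in every library to enter here, which leaves out the genes lost at 100 pg.

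Apart from the marker lists, gene groups had ratios from 2.37 to 0.931, and no group had a member called with scaling under the filter used here, while CALM2, of the calmodulin group, was called under edgeR's default filter. Summed over 25 other splicing regulators, sites numbered 182, 208 and 194 at 1 ng, against 69, 93 and 101 at 100 pg, a ratio of 2.22 beside 1.84 over all genes. In this group 9 of 18 tested members held more sites in every 1 ng library than in any 100 pg library, beside 30.2% of all tested genes. As shares of each library's total 2 of the 18 were higher and 2 lower without overlap, beside 11.7% and 6.26% of all tested genes. QKI, a regulator of splicing and RNA stability, held 20, 24 and 19 at 1 ng against 7, 5 and 7 at 100 pg, and ELAVL1, which binds AU-rich elements, 9, 13 and 7 against 2, 2 and 1. RBFOX2 itself held 9, 5 and 7 sites at 1 ng and 4, 3 and 7 at 100 pg, and the inputs overlapped. RAB and vesicle traffic genes had a ratio of 2.13, and 12 of 19 tested members were higher at 1 ng without overlap, among them RAB10 with 11, 14 and 27 sites at 1 ng against 9, 6 and 8. SNX3, a sorting nexin, was lower without overlap, with 2, 4 and 1 sites at 1 ng against 8, 12 and 6 at 100 pg. As shares of each library's total 4 of the 19 were higher and 1 lower. Nuclear transport genes had a ratio of 2.06, cell division genes 2.05, zinc finger genes of the ZNF series 2.14 and nuclear long noncoding RNAs 2.03. The ratio was 2.37 over the RBFOX2 example genes of the study, which were chosen on this assay, and 1.63 over its TDP-43 examples.

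Other groups lay below the ratio over all genes. Heat shock proteins and chaperones held 75, 90 and 105 sites at 1 ng, against 70, 89 and 98 at 100 pg, a ratio of 1.05 with overlapping ranges. The median unscaled log2 fold change of the 12 tested members was −0.14, against 0.99 over all tested genes, and the median site coverage of the group was 138 reads. HSPD1, the mitochondrial chaperonin, held 3, 4 and 3 sites at 1 ng against 3, 8 and 7 at 100 pg at 516.5 reads, whereas HSPA4, at 39.5 reads, held 5, 8 and 6 against 2, 0 and 1. Glycolysis genes held 44, 29 and 23 at 1 ng against 38, 24 and 28 at 100 pg, a ratio of 1.07. The ratio was 1.30 in proteasome subunits, 1.41 both in cytoskeleton genes and in 14-3-3 proteins and calmodulins, 1.46 in cytoplasmic ribosomal proteins, 1.48 in SR splicing factors, 1.53 in replication-dependent histones, 1.55 in translation factors, 1.57 in chromatin regulators and 1.58 in heterogeneous nuclear ribonucleoproteins. The 6 tested ribosomal protein genes, of 84, had a median log2 fold change of 1.70 without and 0.84 with scaling, above the 0.99 and 0.11 of all tested genes, while the group's summed sites had the smaller ratio. The direction of such groups depended on the scaling: the median log2 fold change of tested heterogeneous nuclear ribonucleoproteins was 0.52 without scaling and −0.36 with it, and that of SR factors 0.11 and −0.76. Mitochondrially encoded transcripts held 10, 9 and 8 sites at 1 ng against 7, 11 and 11 at 100 pg, a ratio of 0.931. In SR factors the ratio ran from SRSF4, with 9, 8 and 8 sites at 1 ng against 1, 3 and 2, to SRSF3 with the opposite order. SRSF4 had a median site coverage of 38 reads and SRSF3 one of 462.5 reads. Over groups, a low ratio did not always go with deep coverage. The group median was 97 reads in proteasome subunits, but 38 in glycolysis genes and 27 in cytoplasmic ribosomal proteins. In cell division genes, with a ratio of 2.05, it was 52 reads.

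**Figure D5:**
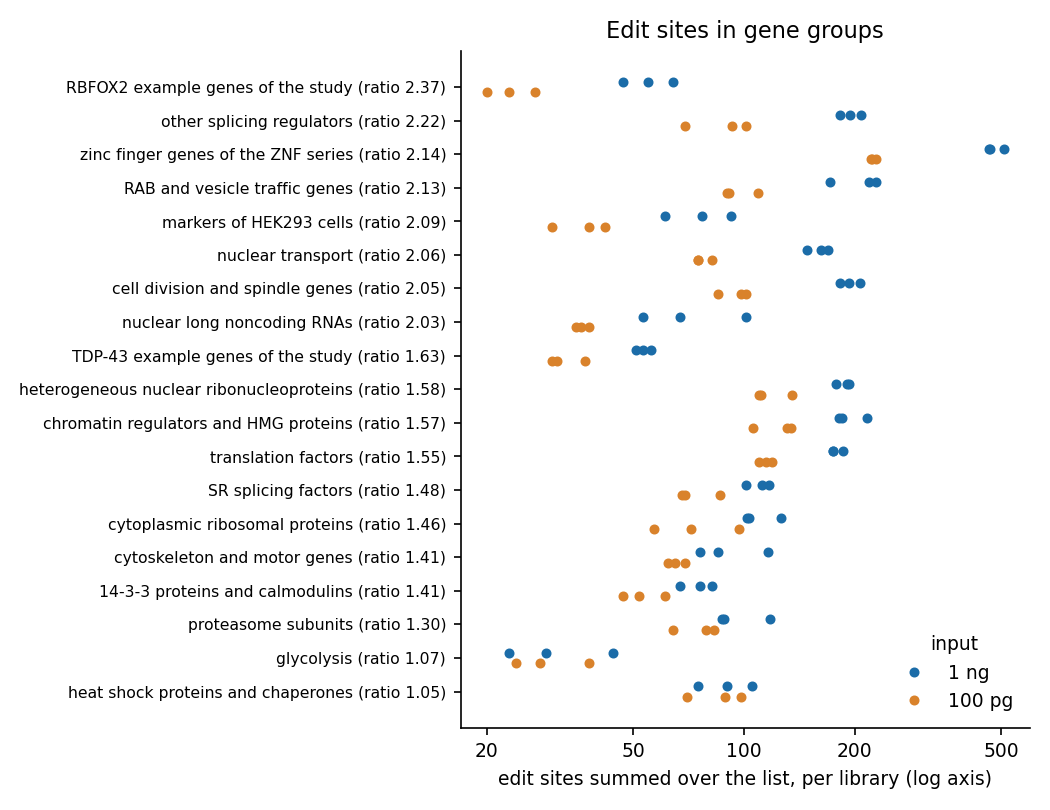
Edit sites summed over each gene group that averaged over 20 sites at 1 ng (x axis, log) per RBFOX2 library, with 1 ng above 100 pg in each row and the ratio of the means beside the name. Ratios run from 2.37 in the RBFOX2 examples to 1.05 in heat shock proteins and chaperones, where the inputs overlap.

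The genes that the study showed as examples were looked up in the same way. APP, on the minus strand of chromosome 21 (25880535 to 26171128 in hg38), encodes the amyloid precursor protein and held 28, 20 and 15 sites at 1 ng, against 14, 10 and 4 at 100 pg (exact permutation p = 0.1). Over the 3 libraries 12 of its sites at 1 ng and 6 at 100 pg lay near UGCAUG. DEPDC1, a gene of mitosis, held 14, 16 and 19 at 1 ng against 4, 3 and 0 at 100 pg (exact permutation p = 0.1). PKM, the pyruvate kinase of glycolysis, held 9, 6 and 7 at 1 ng against 8, 7 and 6 at 100 pg, with an exact permutation p of 1. OGT held 4, 8 and 4 against 1, 3 and 4, and DCUN1D4 9, 5 and 2 against 0, 0 and 6, both with overlap. Among examples of TDP-43, another RNA-binding protein, TARDBP held 6, 13 and 14 at 1 ng against 4, 3 and 3 at 100 pg, and NUCKS1 16, 15 and 16 against 21, 15 and 10. APP, DEPDC1 and TARDBP were the 3 of these 9 genes whose inputs did not overlap, a share near the 30.2% of all tested genes. In the Enzyme-only libraries at 1 ng and 100 pg, APP held 10 and 1 sites, DEPDC1 14 and 3 and TARDBP 6 and 5.

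At single positions, few edits were called again in another library. Of the gene-strand positions of a 1 ng library, leaving out positions of any Buffer-only library, 2.63% on average were called in another 1 ng library and 1.11% in a 100 pg library. Of those of a 100 pg library, 2.04% were called in a 1 ng library and 1.17% in another 100 pg library. Near UGCAUG the 4 shares were 8.29, 3.26, 8.06 and 4.17% in the same order, and in 3′UTRs 3.99, 1.62, 3.55 and 2.12%. Shares were higher at deep coverage. At 100 reads and more 6.57% of 1 ng positions recurred in another 1 ng library and 4.73% in a 100 pg library, against 0.742% and 0.263% at 5 to 9 reads. These pairs share libraries, so the shares are a description. They also depend on the size of the list searched. A library held 29310 to 30944 such positions at 1 ng and 16257 to 16531 at 100 pg.

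Positions called in all 3 libraries at 1 ng and in no Buffer-only library numbered 130. Of these, 74 were found in no 100 pg library, 45 in 1, 8 in 2 and 3 in all 3, so that 43.1% were found at least once. Of the 45 such positions near UGCAUG 51.1% were found at 100 pg, and of the 85 others 38.8%. By mean coverage, 61.9% of those with 100 reads or more, 43.6% of those with 50 to 99 and 24.2% of those with 20 to 49 were found, as were 4 of the 12 with 10 to 19 reads (33.3%) and 1 of the 4 with 5 to 9 (25%). The 4 positions of ZNF770, a zinc finger gene, were all missing at 100 pg, while all 3 of CDH2, of RAB11A and of TOMM20, a mitochondrial import receptor, were found. In the other direction, 21 positions were called in all 3 libraries at 100 pg, and 57.1% of them were found at 1 ng.

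Positions called in all 6 RBFOX2 libraries and in no Buffer-only library included 1 in HPRT1 and 1 in PLS3, both in 3′UTRs within 50 nt of a UGCAUG. In HPRT1, a purine salvage enzyme gene (hg38 chromosome X, position 134500217, plus strand), the edit fraction was 2.24, 3.45 and 1.77% at 1 ng, against 2.64, 1.49 and 11.6% at 100 pg, at 181 to 290 reads. In PLS3, an actin-bundling protein gene (chromosome X, position 115649518, plus strand), it was 2.94, 1.72 and 2.44% at 1 ng, against 3.33, 4.60 and 8.13% at 100 pg, at 87 to 123 reads. PLS3 had no overlap between inputs and HPRT1 did, but neither was called by limma on the log-odds of edited reads (adjusted p = 0.656 for PLS3 and 0.808 for HPRT1). Over all 102 gene-strand positions called in the 6 libraries, 99 of them also in Buffer-only libraries, limma called 0, with 1 higher and 5 lower at 1 ng at an unadjusted p under 0.05.

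FLARE clusters, regions called as enriched for edits, were also fewer at 100 pg. Clusters with a single edited base made up 47.4% ± 1.68 at 1 ng and 41.7% ± 1.33 at 100 pg (SD, n = 3). The libraries held 23442, 24715 and 24548 clusters at 1 ng, against 13160, 13614 and 13567 at 100 pg, a ratio of 1.80 (exact permutation p = 0.1). By mean depth the ratio was 4.15 under 10 reads, with 960 ± 36.6 clusters at 1 ng and 231 ± 20.3 at 100 pg, and 1.36 at 100 reads and more, with 6072 ± 215 at 1 ng and 4451 ± 26.3 at 100 pg. Clusters in 3′UTRs numbered 11937 ± 264 at 1 ng and 5609 ± 36.6 at 100 pg, a ratio of 2.13. Clusters that held UGCAUG made up 2.76, 2.79 and 2.94% at 1 ng, against 2.09, 1.99 and 1.95% at 100 pg, and 1.21% and 1.07% in the Enzyme-only libraries at 1 ng and 100 pg. In introns the share was 3.43% ± 0.20 at 1 ng and 1.91% ± 0.20 at 100 pg. In coding sequence it was 1.29% ± 0.13 and 1.17% ± 0.15, with overlap (exact permutation p = 0.2, SD, n = 3).

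Of the clusters of a 1 ng library 11.0% overlapped a cluster of another 1 ng library and 5.39% one of a 100 pg library, and of the clusters of a 100 pg library 9.74% overlapped one of a 1 ng library and 5.97% one of another 100 pg library. Clusters with UGCAUG were found again more often, with shares of 28.6, 13.5, 29.1 and 16.2% in the same order. At a mean depth of 100 reads or more these shares were 45.3, 27.7, 42.5 and 30.8%. At 1 ng, clusters of under 10 reads overlapped another 1 ng library in 2.08% of cases and a 100 pg library in 0.952%. All these shares also depend on the number of clusters in the library searched, which was larger at 1 ng.

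For their confident lists, the authors kept only clusters present in every replicate of an input and then took away Buffer-only clusters. This left 776 at 1 ng and 214 at 100 pg. Of the 776, 51 (6.57%) overlapped the 100 pg list, and of the 214, 52 (24.3%) overlapped the 1 ng list. Against the single libraries the overlap was wider, since 50.4% of the 1 ng list overlapped a cluster of some 100 pg library and 75.7% of the 100 pg list one of some 1 ng library. The median over clusters of the authors' mean coverage was 106 reads in the 1 ng list and 247 in the 100 pg list. These lists have no replicates and were compared without a test.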

How the data were processed

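Total RNA was taken from methanol-fixed HEK293T cells, and libraries were made from 1 ng or 100 pg with a low-input kit that is not stated to keep strand. The authors trimmed reads with cutadapt, removed repeat reads, mapped the rest to hg38 (STAR 2.4.0 per the submitters' processing notes), called sites with SAILOR (score above 0.5, edit fraction below 0.8, known variants removed) and clusters with FLARE (false discovery rate 0.1, merge distance 15 nt). Per site, the deposited files hold edited-read counts, total-read counts and a score, and the deposited cluster files give counts, the edit fraction, a score and the mean depth as a signal. Total reads per library are not in these files, so depth is given as site coverage.

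Groups were taken from the sample titles. Here each site was assigned to 1 gene and region on its strand with Gencode 44 (the authors used 29), exons before introns. Over all annotated transcripts, 3′UTR was ranked first, then 5′UTR, coding sequence and noncoding exon. A coding base that lies in a 3′UTR of another transcript thus counted as 3′UTR, and the region shares depend on this order. Overlapping genes, antisense genes and near-identical copies are uncertain, and 3.36% of gene-strand positions had another gene of equal rank. Library values were compared with exact two-sided permutation tests. Sites per gene (at least 3, scaled to the median library total, in enough libraries and 5 in all) were tested with edgeR 4.0.16 (R 4.3.3, TMM scaling, quasi-likelihood, Benjamini-Hochberg at 0.05), with DESeq2 1.42.0 as an alternative, and edit fractions with limma 3.58.1 on log-odds with a pseudocount of 0.5. The edgeR step was tested on simulated data. Scripts used scipy 1.17.1, pandas 2.3.3, numpy 2.4.6 and matplotlib 3.10.9 in Python 3.11.15, and bedtools 2.31.1. Sequences are the hg38 reference.

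Genes were named by these rules: up to 10 genes of largest and of smallest fold change among those called, up to 10 with the most sites at 1 ng and 0 at 100 pg and 5 the other way round, positions called in all 6 libraries, 6 kept and 6 lost motifs, the study's examples, and members of the lists. CALM2, FKBP1A, EEF2, H3-3B, ENAH, SLIT2, SLC25A5, ZNF770, RAB11A, TOMM20 and the genes called only without scaling were chosen with their values known. One position that the rules name is not reported here. The members and lists were chosen with earlier results of these data known. Alternatives were the scaling, filter and tool of the gene test, coverage of at least 20 reads and coding sequence ranked first. Others were leaving out Buffer-only positions, other motif windows and overlaps, a replicate block and leaving out each library.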

Additional observations from a re-analysis of the deposited data

How the results depend on the processing

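Of 490 alternative values of 52 results, 449 kept their direction and side of the threshold, 21 moved and 11 reversed. Another 9 passed the threshold only in the alternative, and 0 lost a call. The main fits made no call, so none could be lost. For exact tests over libraries the threshold was out of reach, so only their direction could change. Called genes numbered 57 without scaling, 3 under edgeR's default filter (172 genes tested, 1 higher and 2 lower at 1 ng), 2 with no filter, and 1 from edited reads, which was SLC25A5 with 0, 0 and 1 edited reads at 1 ng and 97, 27 and 39 at 100 pg. Leaving out a library gave 0 calls each time. MTR (log2 fold change 1.81) and CALM2 (−2.17) were called under the default filter, and CARNMT1 and WASF1 with no filter.

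Recurrence of positions (1 ng in 1 ng, 1 ng in 100 pg, 100 pg in 1 ng, 100 pg in 100 pg) was 3.71, 1.86, 3.41 and 2.20% with Buffer-only positions and 3.76, 1.68, 2.70 and 1.60% at 20 reads or more. Without single libraries it ran from 2.45 to 2.72% (1 ng in 1 ng) and from 1.08 to 1.29% (100 pg in 100 pg). Cluster overlap in the same order was 7.95, 3.81, 7.12 and 4.44% when at least 50% of the cluster had to overlap. Among the clusters above each library's median score it was 9.13% (1 ng in 1 ng) and 7.59% (100 pg in 100 pg), and without single libraries 100 pg in 100 pg ran from 5.63 to 6.26% and 1 ng in 1 ng from 10.8 to 11.4%. The cause of these shifts was not tested. The median distance to the transcript end was 55 nt longer at 1 ng in 3′UTRs alone, and its difference ran from −21.1 to 8.67 nt without single libraries.

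In alternatives chosen after seeing the data, with coverage of at least 20 reads the difference in sites per library, 1 ng minus 100 pg, turned to −2 in PKM, −1 in DCUN1D4, −2.33 in NUCKS1 and −0.33 in HPRT1. Without single libraries it ran from −0.5 to 1 in PKM, from −2.33 to 3.17 in NUCKS1 and from −0.17 to 4.33 in HPRT1, where none was a call. The cause was not tested.

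Replicate numbers are not stated to pair libraries across inputs. Deviations of same-numbered libraries correlated at 0.007, 0.019 and −0.003 over 2174 genes, and other numbers at −0.045 to 0.037. With the replicate number as a block edgeR called 0 genes and limma 0 positions.

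Coverage limits the comparison: sites under 5 reads are not listed, edit fractions at 5 to 9 reads move in large steps, and an absent site has no coverage value.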
